A study of Mus musculus with 8 samples.

Results

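A set of 37 mouse genes that encode matrix glycoproteins, proteoglycans and the proteins that process or crosslink the matrix was followed across 6 libraries of ZFP281 chromatin immunoprecipitation sequencing. The genes were taken by symbol, and all 37 were found among the 21887 protein-coding genes of the annotation. ZFP281 is a DNA-binding zinc finger protein with a known role in embryonic stem cells. The libraries came from MMTV-HER2/Neu mice on the FvB background, in which the mouse mammary tumour virus promoter drives the HER2/Neu oncogene in mammary epithelium. In one group, early lesion or EL, the animals were 14 to 18 weeks old and had no palpable tumour. In the other, primary tumour or PT, they carried primary tumours and had passed 20 weeks of age. Cells of both were grown for 7 days as spheres in mammosphere medium on ultra-low adhesion plates, and each group has 3 biological replicates labelled 1 to 3. Every animal of both groups carried the transgene, so the comparison holds no library without it. The tissue label of the EL samples reads mammary lung and that of the PT samples breast tumor, while both are labelled as breast cancer cells. The growth protocol, in contrast to the EL tissue label, names mammary glands. The labels do not say which animals gave which replicate or whether animals were pooled.

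The extracellular matrix is the protein network around cells. Glycoproteins such as fibronectin and tenascin link cells to it, small leucine-rich proteoglycans such as decorin bind its collagen fibrils, and fibrillins and elastin form its elastic fibres. Collagen chains are hydroxylated and folded in the endoplasmic reticulum, trimmed outside the cell and then crosslinked by lysyl oxidases. Laminins, nidogens and perlecan build the basement membrane that underlies the mammary epithelium. In the mammary gland most of the interstitial matrix is made by fibroblasts, and cells that undergo epithelial to mesenchymal transition can make it too.

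Each library was deposited as a list of summits, the single positions of highest enrichment, each with a score taken here to be −log10(q). The lists held 8588, 15770 and 7055 summits in EL replicates 1 to 3, 4030 and 6033 in PT replicates 2 and 3, and fewest in PT replicate 1. Read depth is unknown, so a longer list cannot be set against the reads behind it. For this reason the counts of bound members per library are given for the full lists and for lists of equal length. Other counts are from the full lists unless lists of equal length are named. In lists of equal length each library keeps as many of its top-scoring summits as PT replicate 1 has in all. These are 33.7%, 18.4% and 41.1% of the EL lists and 71.9% and 48.0% of the other PT lists. The height of a summit is given as the percentile of its score among the summits of its own list. A gene counted as bound at a boundary when a summit lay within 1 kb of either end of the gene, and as bound nearby when a summit lay in the gene body or within 20 kb of it. Binding in more cells and stronger binding per cell cannot be told apart in these data.

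The sequence before the start site is shown for the 7 genes whose promoter window held a summit, because these windows place a summit on sequence that can be read. RefSeq promoter windows (GRCm38.p6, 250 bases before the start site to 50 after) were given for 23 of the 37 genes, and 7 of the 23 held a summit in at least 1 library. The runs below are the 250 bases before the start site, 5′ to 3′ on the strand of the gene, and capitals mark matches to GGGGNGGGG on either strand, a loose form of the G-rich element tied to ZFP281 binding.
Bgn: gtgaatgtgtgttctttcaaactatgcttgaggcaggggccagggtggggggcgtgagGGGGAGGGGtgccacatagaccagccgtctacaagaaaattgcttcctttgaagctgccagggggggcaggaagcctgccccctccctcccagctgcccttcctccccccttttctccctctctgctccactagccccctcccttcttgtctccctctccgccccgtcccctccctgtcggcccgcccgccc
Fbn1: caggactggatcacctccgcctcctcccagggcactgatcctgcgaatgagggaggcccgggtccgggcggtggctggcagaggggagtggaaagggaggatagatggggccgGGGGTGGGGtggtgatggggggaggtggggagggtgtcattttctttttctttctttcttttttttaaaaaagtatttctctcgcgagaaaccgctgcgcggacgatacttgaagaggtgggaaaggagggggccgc
Mxra8: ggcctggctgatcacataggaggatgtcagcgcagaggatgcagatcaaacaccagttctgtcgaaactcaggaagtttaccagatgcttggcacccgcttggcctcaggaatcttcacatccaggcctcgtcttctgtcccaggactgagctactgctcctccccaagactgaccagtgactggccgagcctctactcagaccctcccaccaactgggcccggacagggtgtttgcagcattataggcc
Serpinh1: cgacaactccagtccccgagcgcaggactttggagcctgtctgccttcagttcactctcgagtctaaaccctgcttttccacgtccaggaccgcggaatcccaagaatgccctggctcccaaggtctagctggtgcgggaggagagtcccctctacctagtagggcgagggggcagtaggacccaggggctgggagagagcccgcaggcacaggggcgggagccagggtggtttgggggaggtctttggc
Lama5: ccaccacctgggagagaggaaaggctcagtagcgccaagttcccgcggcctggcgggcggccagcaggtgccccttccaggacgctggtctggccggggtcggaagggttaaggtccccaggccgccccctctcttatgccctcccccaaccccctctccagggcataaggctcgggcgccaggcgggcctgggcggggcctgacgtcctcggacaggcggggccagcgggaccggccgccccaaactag
Lamb1: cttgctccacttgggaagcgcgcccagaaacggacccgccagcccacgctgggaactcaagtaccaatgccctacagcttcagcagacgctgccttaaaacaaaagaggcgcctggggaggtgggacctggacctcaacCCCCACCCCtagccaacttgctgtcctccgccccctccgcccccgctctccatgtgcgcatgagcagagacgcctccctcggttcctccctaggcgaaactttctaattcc
Pcolce2: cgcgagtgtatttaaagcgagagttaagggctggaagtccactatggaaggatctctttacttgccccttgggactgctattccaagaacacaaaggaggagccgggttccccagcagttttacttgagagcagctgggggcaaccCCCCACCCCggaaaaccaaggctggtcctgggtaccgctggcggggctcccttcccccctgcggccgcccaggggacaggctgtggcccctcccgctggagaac
The runs lie at chrX:73483351-73483600 (plus strand), chr2:125506439-125506688 (minus strand), chr4:155839430-155839679 (plus strand), chr7:99353240-99353489 (minus strand), chr2:180225860-180226109 (minus strand), chr12:31265043-31265292 (plus strand) and chr9:95637378-95637627 (plus strand). In Bgn, the gene of biglycan, EL replicates 1 and 2 had summits 153 and 224 bp before the start site, and the match there is also the only member window with the stricter GGGGAGGGG. In Fbn1, the gene of fibrillin 1, the same replicates had summits 94 and 129 bp before it. In Lama5, the gene of the laminin alpha 5 chain, the summits lay 138 bp before the start site in EL replicate 2, and 10 and 57 bp before it in PT replicates 1 and 3, with no match to either motif in the run. Mxra8 and Serpinh1 had summits just after the start site, 45 bp in EL replicate 3 and 18 bp in EL replicate 2. Their runs held no match either. With neighbouring summits just outside the window added, Mxra8 was bound there in all 3 EL libraries, and Serpinh1 in 3 EL and 2 PT libraries. In Lamb1, the gene of the laminin beta 1 chain, EL replicate 3 had a summit 55 bp before the start site, and in Pcolce2, the gene of a procollagen processing enhancer, EL replicate 2 had one 14 bp before it, each with 1 match in the run. Over the full windows, 4 of these 7 held GGGGNGGGG (57.1%), and 10 of all 26 member windows did (38.5%). Among all 21263 promoter windows of protein-coding genes, 7.42% held GGGGAGGGG and 26.6% held GGGGNGGGG on either strand. The shares were 27.9% and 65.5% in the 2139 windows with a summit in any library, whose median GC content was 66.7% against 55.3% in the others. Every GGGGAGGGG is also counted as GGGGNGGGG, and a match is a description of the letters, not a binding site.

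The matrix genes were bound in more EL than PT libraries, and the difference remained in lists of equal length. At a boundary, EL replicates 1 to 3 bound 14, 20 and 10 of the 37 genes, and PT replicates 1 to 3 bound 2, 3 and 7. Nearby, EL bound 31, 31 and 27 of them, whereas PT bound 8, 11 and 17. The groups did not overlap in either window. Counts over all protein-coding genes did not overlap either, with EL at 2565 or more and PT at 2439 or fewer at a boundary. Nearby these limits were 6710 in EL and 6338 in PT. The nearby shares were 80.2% ± 6.24 in EL and 32.4% ± 12.4 in PT (SD, n = 3), against 37.9% ± 9.30 and 22.4% ± 6.19 of all protein-coding genes. In lists of equal length, 15, 15 and 18 genes were bound nearby in EL and 8, 11 and 11 in PT, and 5, 5 and 6 against 2, 3 and 3 at a boundary. The boundary shares of all protein-coding genes were 15.3% ± 4.82 in EL and 8.14% ± 2.75 in PT in the full lists, and 6.0% and 5.91% in lists of equal length (means of 3 libraries). The nearby shares were then 43.2% ± 4.68 and 27.0% ± 4.68, while those of all protein-coding genes were 17.2% ± 0.324 and 16.8% ± 0.150 (SD, n = 3). The members are long genes, with a median span of 38.7 kb against 17.2 kb for all protein-coding genes, and a longer gene offers more room for a summit in either group. At least 1 library bound 31 of the 37 members nearby (51.4% of all genes) and 20 at a boundary (23.1%), and in lists of equal length 21 nearby (27.9%) and 9 at a boundary (10%). More EL than PT libraries bound 23 members nearby (31.8% of all genes) and 16 at a boundary (15.5%), while more PT than EL libraries bound 0 nearby (3.89%) and 1, Lama5, at a boundary (1.67%). In lists of equal length 11 members were bound nearby by more EL libraries (9.03% of all genes) and 2, Loxl3 and Nid1, by more PT libraries (8.58%). At a boundary, 13 members were bound in EL and never in PT (10.9% of all genes). No p is given for these counts, since the genes were chosen with earlier results of these data known.

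**Figure D1:**
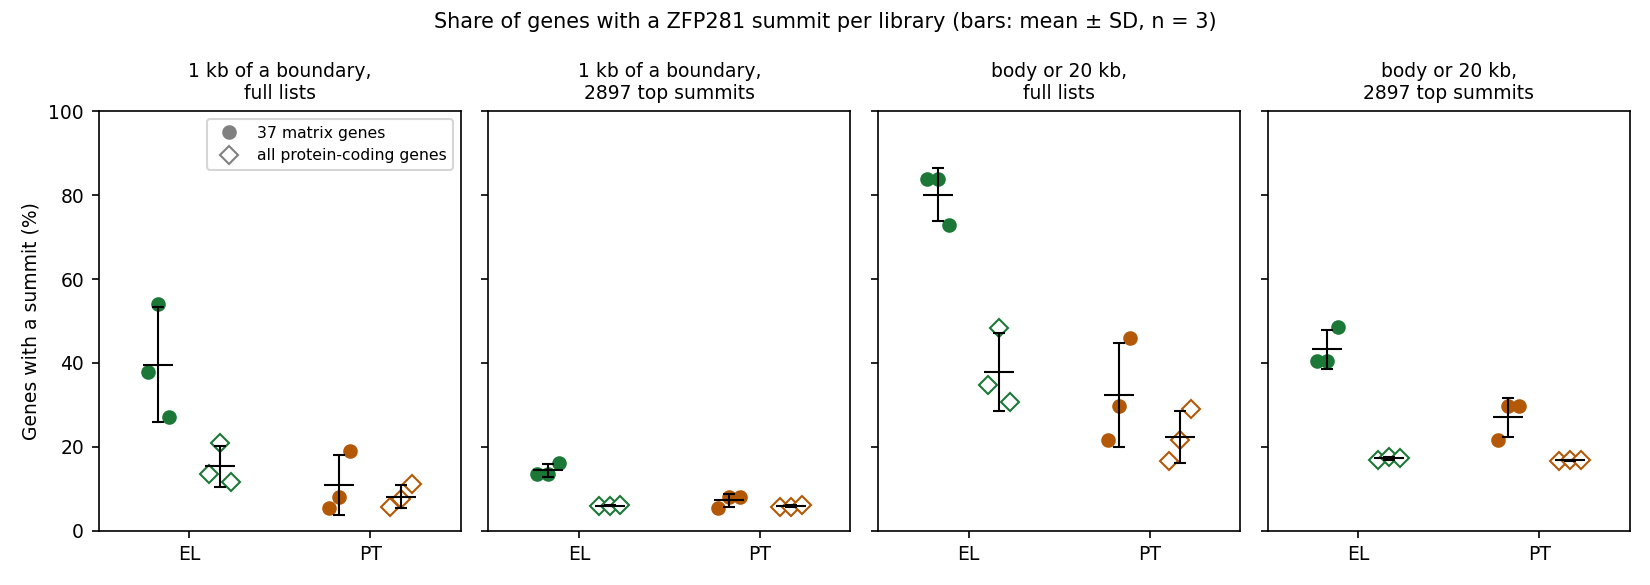
Percentage of genes with a ZFP281 summit in each library (y axis) for EL and PT (x axis), in 2 windows and with full lists or lists of equal length. Filled circles are the 37 matrix genes, open diamonds all protein-coding genes, and bars the mean ± SD of 3 libraries; with equal lists the diamonds of both groups sit level at about 17.2% and 16.8% in the wider window while the circles stand at 43.2% and 27.0%.

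Sorted by the libraries that bound them nearby, 11 members were bound in all 3 EL and no PT library, a class that held 5.19% of all protein-coding genes. They were Fn1, Dcn, Bgn, Fbn2, Fbln1, Eln, Mxra8, Lox, Loxl1, Plod2 and Lamc1. All 6 libraries bound 8 members (13.0% of all genes), namely Fmod, Vcan, Emilin1, Pcolce, Plod1, Serpinh1, Lama5 and Hspg2. A further 9 were bound in EL and in 1 or 2 PT libraries, and 3 in 2 EL libraries alone. With the first class, this makes 14 members bound in EL and never in PT (20.3% of all genes), and 6 were bound in no library (48.6%). No member was bound in PT without EL, whether in any PT library (1.90% of all genes) or in all 3 (0.206%). The 6 genes without any summit were Sparcl1, Tnc, Thbs2, Lum, Loxl2 and Loxl4, whose spans run from 7.20 kb (Lum) to 87.2 kb (Tnc). In lists of equal length the EL-only class fell to 4 genes, Fbn1, Eln, Mxra8 and P4ha1 (1.64% of all genes), no member was bound in all 3 PT and no EL lists (1.42%), and the same 8 genes as in the full lists were bound in all 6 libraries (8.76% of all genes).

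**Figure D2:**
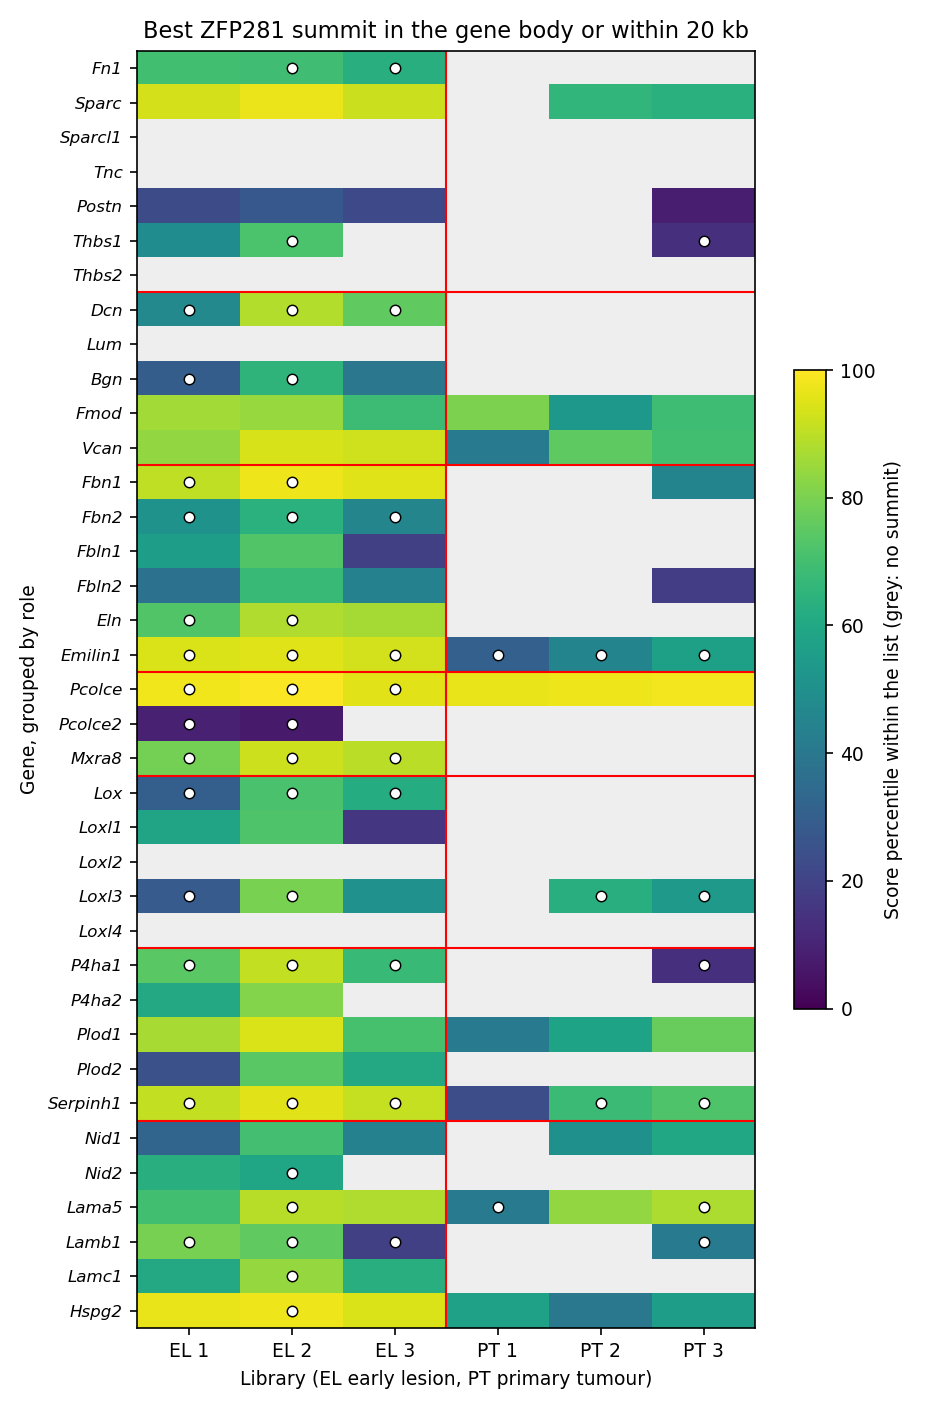
Score percentile of the highest summit in the gene body or within 20 kb (colour; grey, no summit) for each of the 37 genes (rows, separated by role) in each library (columns, 3 EL and 3 PT). White circles mark a summit within 1 kb of a gene boundary; rows such as Eln, Mxra8 and Lamc1 are coloured in EL alone, and 6 rows are grey throughout.

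For a test per gene, the percentile of the best nearby summit, set to 0 where none was listed, was compared between 3 EL and 3 PT libraries. In 20 of the 31 members with a summit every EL library lay above every PT library, an order found in 31.0% of the 11259 genes with a summit, and in no member did PT lie wholly above EL (1.87% of genes). Each of these 20 reached p = 0.1 (exact permutation test, two-sided), the smallest that 3 against 3 libraries allow, with an adjusted p of 0.305 over all 11259 genes. No gene could therefore pass 0.05 by the exact permutation test, and 0 of 11259 did before adjustment. The median difference, EL minus PT, was 45.3 percentile points over the 31 members and 16.8 over all genes with a summit. With lists of equal length, percentiles were taken within the shortened lists, and 8 of 21 members lay wholly above PT in EL (16.4% of 6111 genes) and 0 wholly below (11.7%). The 8 were Sparc, Fbn1, Eln, Emilin1, Mxra8, P4ha1, Serpinh1 and Hspg2. The median difference was then 13.5 points for members and 0.644 for all genes. At a boundary, EL lay wholly above PT in 7 of 20 members (23.2% of 5047 genes) and PT above EL in 0 (0.733%), and in lists of equal length in 4 of 9 (12.1% of 2189 genes) and 0 (9.27%). Because the labels do not tie replicates to animals, these p-values measure only the spread between the libraries.

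Summits at most 200 bp apart in any library were merged into regions, and 124 of the 19317 regions lay at the members. Of these 124, 25 lay within 1 kb of a boundary, 61 deeper in the gene and 38 outside it. All 3 EL and no PT library held 20 of them (1937 of all 19317 regions, or 10%), all 6 libraries 6 (8.14% of all regions), and all 3 PT and no EL library 0 (0.704%). Single libraries accounted for 52, or 41.9%, close to the 47.0% of all regions. Among the 40 member regions with a summit in a list of equal length, 12 were in all 3 EL and no PT list (7.29% of 6093 such regions), 2 in all 3 PT and no EL list (6.29%) and 4 in all 6 (16.3%). Merging those top-scoring summits alone gave 11 in place of 12. The 12 regions lay at Sparc, Vcan, Fbn1 (3 regions), Eln, Emilin1, Pcolce, Mxra8, P4ha1, Plod1 and Serpinh1, and the 2 lay at Emilin1 and Lama5.

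**Figure D3:**
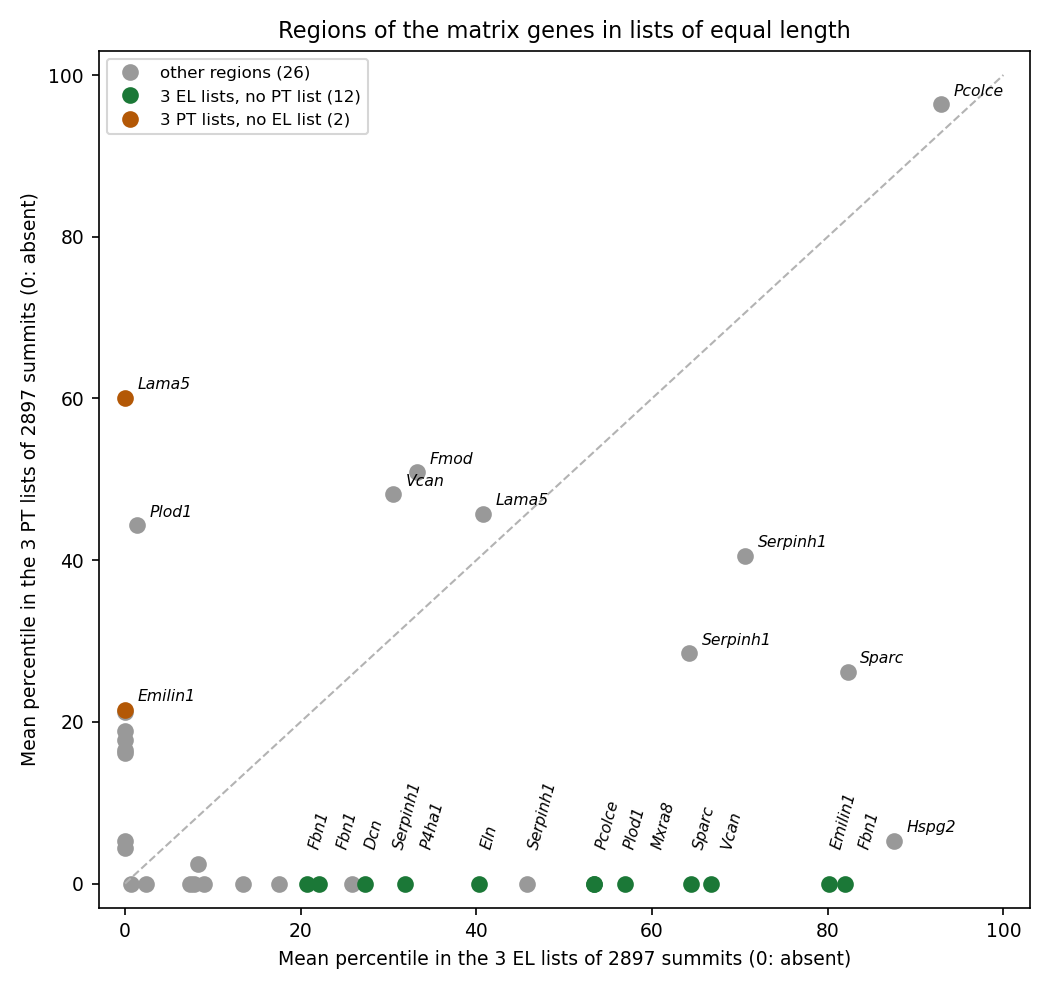
Each point is 1 of 40 regions at the matrix genes, placed by its mean percentile in the 3 EL lists (x axis) and the 3 PT lists (y axis) of equal length, with 0 where a list lacks it. Green points (12) were in every EL list and no PT list and lie along the x axis, orange points (2) show the opposite, and the dashed line marks equal percentiles.

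Among the adhesive and matricellular genes, 4 of 7 had a nearby summit in at least 1 library, a share near the 51.4% of all genes. All 4 were bound in EL and 3 of them in PT, where 31.2% of all genes were. Sparc, which encodes a collagen-binding matricellular protein, had the highest summit of this group, inside the gene 1.79 kb from its upper boundary (chromosome 11, 55418242 to 55418341, mm10). That region stood at percentiles 93.6, 97.2 and 92.1 in EL replicates 1, 2 and 3, was absent from PT replicate 1, and stood at 65.9 and 63.6 in PT replicates 2 and 3. A second Sparc region, 8.28 kb outside the same boundary, had 87.3, 93.3 and 86.6 in EL and only 38.5 in PT replicate 3. Both Sparc regions thus had every EL library above every PT library. Fn1, the fibronectin gene, had a region 1.07 kb outside its upper boundary (chromosome 1, 71654343 to 71654356) at 69.9, 67.7 and 62.6 in EL and in no PT list. At equal list lengths it was found in 2 EL lists. Postn, the periostin gene, carried a low region 8.94 kb away at 22.7, 27.6 and 22.0 in EL, none of them in a list of equal length, and a different single summit in PT replicate 3 at 8.58. Thbs1, the thrombospondin 1 gene, was bound at its lower boundary in EL replicate 2 and PT replicate 3 alone, at 35.4 and 13.4. A higher Thbs1 region, 2.44 kb inside the gene, stood at 48.7 and 71.6 in EL replicates 1 and 2 and was in no PT list. No list of equal length held a Thbs1 summit. The Thbs1 paralogue Thbs2, the tenascin C gene Tnc and the Sparc relative Sparcl1 had no summit within 20 kb in any library.

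Proteoglycan genes divided into an EL-only and a shared part. Dcn, which encodes decorin, a proteoglycan that decorates collagen fibrils, had a single region 41 bp from its lower boundary (chromosome 10, 97479488 to 97479594). It stood at 47.2, 88.4 and 75.5 in EL and in no PT list, and 2 EL lists of equal length held it. The biglycan gene Bgn had 3 regions, all without a PT summit, and the 1 found in every EL library lay 15.5 kb away at 29.3, 47.6 and 15.8. Versican, a large proteoglycan of provisional matrix, is encoded by Vcan, which had neighbouring regions of different pattern inside the gene. The region 4.08 kb from the upper boundary (chromosome 13, 89738942 to 89738961) had 83.5, 93.9 and 92.7 in EL and 14.9 in PT replicate 2 alone. The one 2.54 kb from that boundary (89740430 to 89740549) had 83.7 and 75.3 in EL replicates 1 and 3, none in EL replicate 2, and 40.9, 75.2 and 69.7 in PT. So the first region was in all 3 EL and no PT list of equal length, and the second in 2 EL and all 3 PT lists. Fmod, the fibromodulin gene, was bound 15.2 kb outside its upper boundary in all 6 libraries, at 86.2, 84.4 and 68.6 in EL and 80.4, 53.3 and 69.0 in PT, ranges that overlap. Lum, the lumican gene on the same chromosome as Dcn, had no summit.

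All 6 elastic fibre genes were bound nearby in every EL library in the full lists, as were 27.8% of all genes. In lists of equal length Fbn2, Fbln1 and Fbln2 had no nearby summit in any library. The elastic fibre genes hold the longest spans of the set, 206 kb for Fbn1 and 202 kb for Fbn2. Fbn1 carried 8 regions, of which 3 were found in each EL and no PT list of equal length. The highest lay inside the gene, 18.0 kb from the lower boundary (chromosome 2, 125318432 to 125318688), at 90.3, 97.5 and 95.3 in EL and 45.1 in PT replicate 3. The others lay 26.2 kb inside the upper boundary, at 71.2, 89.5 and 62.6, and 10.3 kb outside it, at 77.7, 82.5 and 68.6, with no PT summit. The region at its start site, shown by sequence above, was present in EL replicates 1 and 2 alone, at 49.5 and 77.4. Eln, the elastin gene, had its main region 12.1 kb inside the upper boundary (chromosome 5, 134735204 to 134735237), at 72.8, 88.1 and 86.6 in EL and in no PT list. Fbn2, the gene of the related fibrillin 2, had 1 region 212 bp outside its upper boundary (chromosome 18, 58210721 to 58210848) at 51.3, 64.0 and 45.3, absent from PT and from every list of equal length. The fibulin genes Fbln1 and Fbln2 had no region in all 3 EL libraries, and 1 PT summit, at Fbln2 in PT replicate 3 at 18.0.

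Emilin1, which encodes a glycoprotein of the elastin interface, was bound at a boundary in all 6 libraries, but at opposite ends. A region 110 bp outside the boundary at the transcription start (chromosome 5, 30913247 to 30913308) had 94.3, 95.1 and 93.4 in EL and was in no PT list. At the other end, 914 bp inside the gene (30920339 to 30920392), PT had 30.8, 45.2 and 56.8 and EL had 21.1 in replicate 2 alone. In lists of equal length the first was in 3 EL and 0 PT lists and the second in 0 EL and 3 PT lists. Another region, 4.04 kb outside the start, was also in EL alone, at 29.8, 71.7 and 54.3. A count of bound genes records Emilin1 as shared, although no region at its boundaries was found in all 6 libraries. The EL region lay before the RefSeq start site and outside the promoter window.

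**Figure D4:**
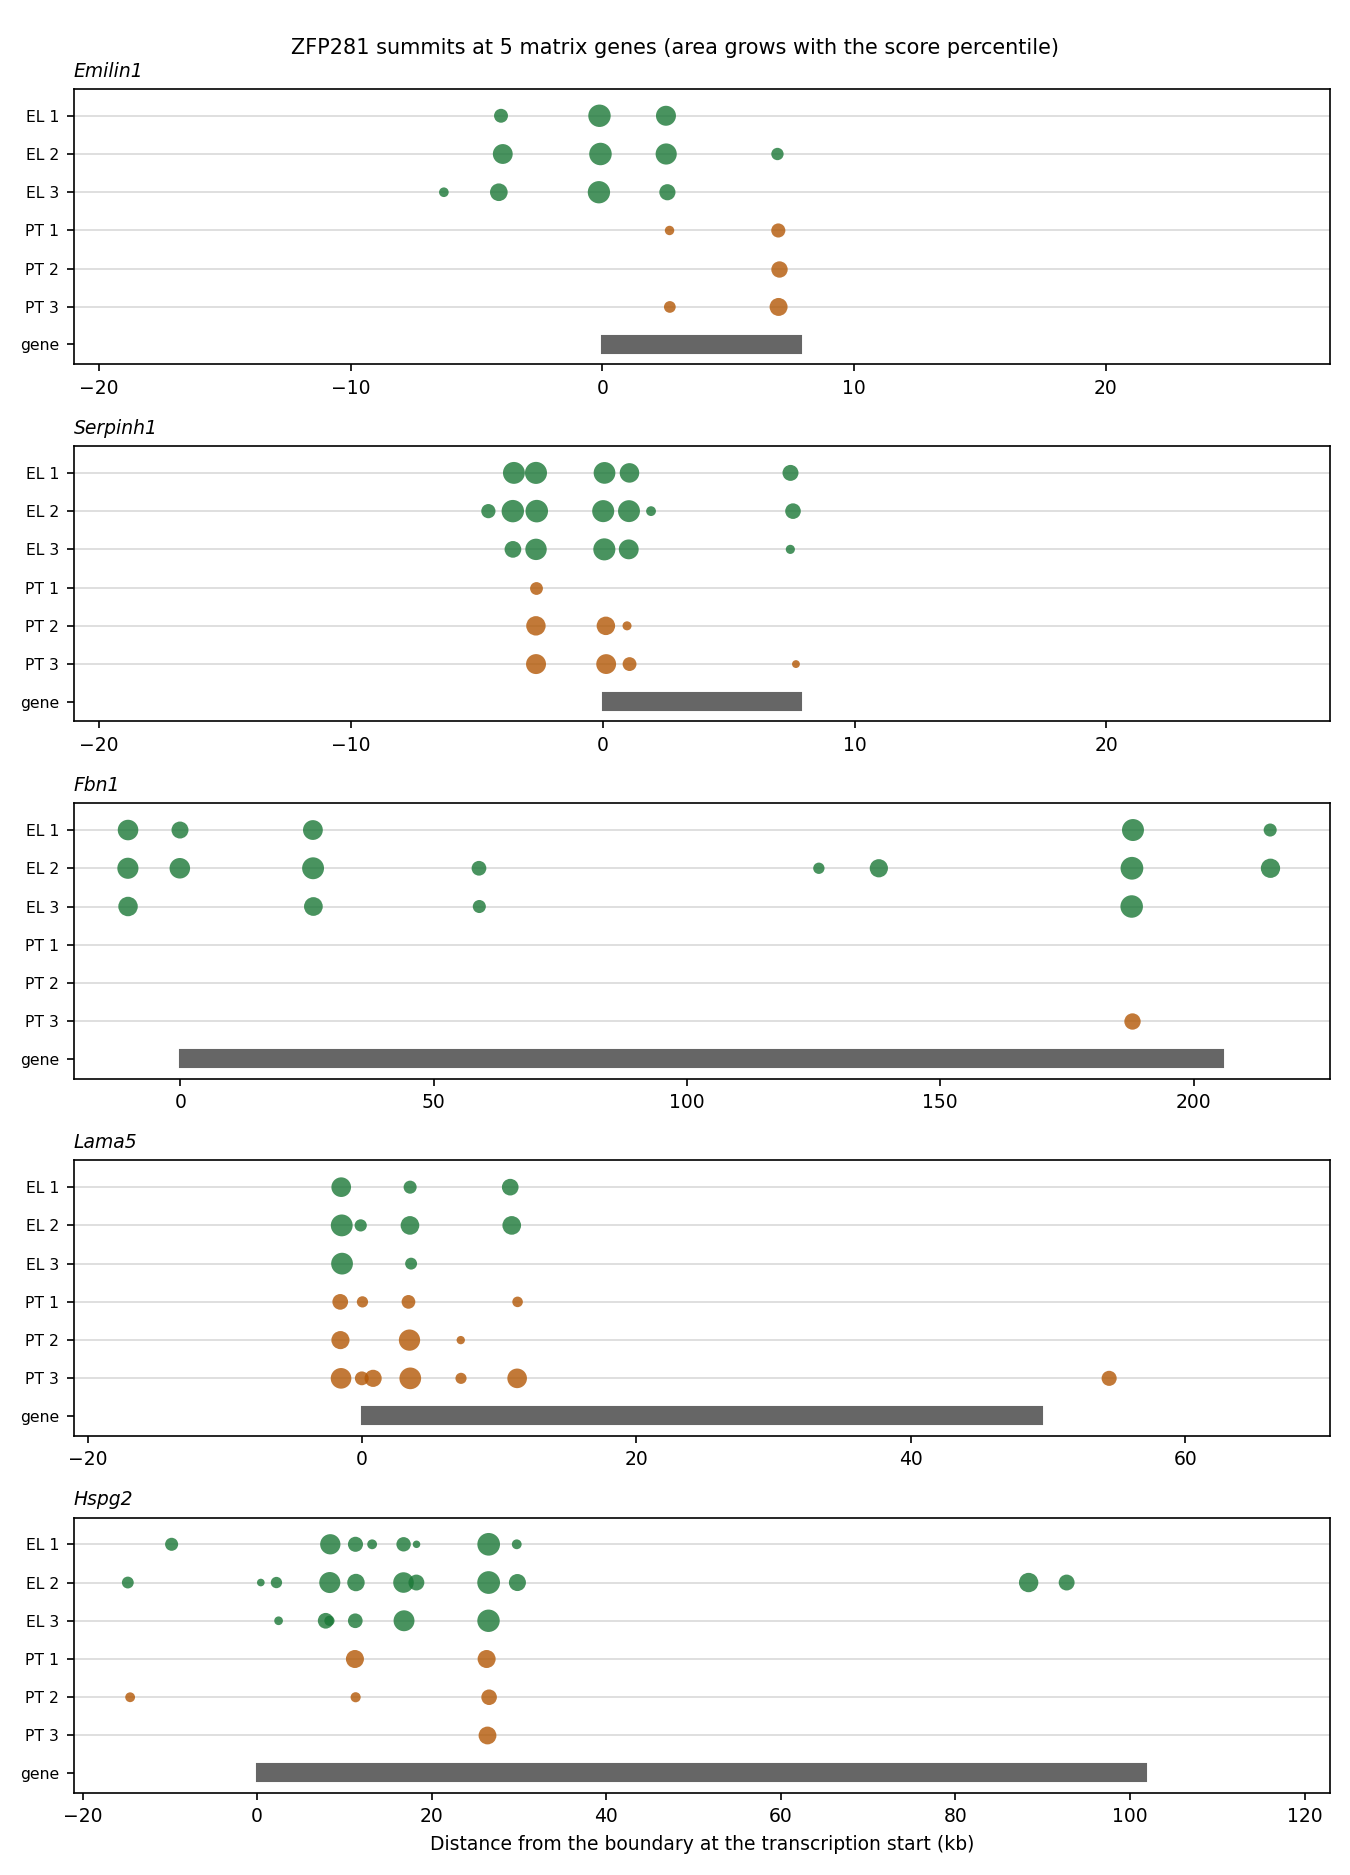
Summits (circles, area growing with the score percentile in the list) in each of 3 EL (green) and 3 PT (orange) libraries, by distance in kb from the boundary at the transcription start, with the gene as a grey bar. Emilin1 shows EL summits at its start and PT summits near its end, Fbn1 shows 1 PT summit in all, Serpinh1 a cluster present in both groups, Lama5 the most PT summits, and Hspg2 a row of EL summits.

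Among the procollagen processing genes and Mxra8, Pcolce and Mxra8 had high boundary summits in EL alone, while those of Pcolce2 were low. Pcolce, whose product enhances removal of the procollagen C-terminal propeptide, had a region 701 bp inside its upper boundary (chromosome 5, 137610810 to 137610833) at 80.6, 90.5 and 87.4 in EL and in no PT list. Another region 17.6 kb from Pcolce, at a boundary of Lrch4, was among the highest of every library, at 97.8, 99.4 and 95.4 in EL and 96.5, 97.3 and 98.3 in PT. Counted nearby, Pcolce was therefore bound in all 6 libraries, and its own boundary only in EL. Mxra8, which encodes a cell surface protein linked to matrix remodelling, had 1 region 68 bp inside its lower boundary (chromosome 4, 155839725 to 155839772) at 78.9, 92.5 and 89.5 in EL and none in PT. Pcolce and Mxra8 were the 2 members bound at a boundary in all 3 EL and no PT list of equal length (0.379% of all genes). No member showed the opposite (0.338%). In the full lists the EL-only class held 5 members, Dcn, Fbn2, Pcolce, Mxra8 and Lox, against 1.94% of all genes, all 6 libraries bound 1, Emilin1 (4.39%), and no member was bound in PT alone (1.04%). At a boundary in lists of equal length, Dcn, Pcolce, Mxra8, Lox and Lamb1 were found in EL alone (5 members, 2.01% of all genes) and Loxl3 and Lama5 in PT alone (2 members, 2.09%). Pcolce2, a paralogue, had low summits at its lower boundary in EL replicates 1 and 2, at 9.31 and 7.15.

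The lysyl oxidases, copper enzymes that start collagen and elastin crosslinks, had a nearby summit in 3 of 5 genes (51.4% of all genes). Lox had a boundary summit in each EL library, at 30.3, 71.4 and 61.9, and none in PT, but these fell into separate regions. That of EL replicate 2 lay 299 bp inside the upper boundary and those of EL replicates 1 and 3 lay 188 bp outside it (chromosome 18, 52530043 to 52530068). Loxl1 had 1 region in all 3 EL libraries, 8.47 kb inside the gene, at 58.5, 72.3 and 11.1, and no PT summit. Loxl3 differed from them, with a region 703 bp outside its lower boundary that is also at a boundary of Dok1. It stood at 28.7 and 80.1 in EL replicates 1 and 2 and at 63.2 and 54.2 in PT replicates 2 and 3, and in lists of equal length it was in 0 EL and 2 PT lists. A lower region 18.1 kb beyond its other end, at a boundary of Tlx2, was in EL alone at 24.9, 54.9 and 50.5. Loxl2 and Loxl4 had no summit nearby.

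Among genes for collagen hydroxylation and folding, all 5 were bound nearby in at least 1 library (51.4% of all genes). Serpinh1, which encodes the collagen chaperone HSP47, carried 7 regions over a span of 7.87 kb and its flanks. The region at its start, 77 bp inside the upper boundary (chromosome 7, 99353103 to 99353221), had 88.0, 90.9 and 91.1 in EL, none in PT replicate 1, and 60.6 and 71.5 in PT replicates 2 and 3. A region 2.64 kb outside that boundary (99355859 to 99355892) was in all 6 libraries, at 90.9, 95.5 and 85.0 in EL and 23.5, 68.1 and 72.5 in PT. Next to it, 3.55 kb outside, was a region of EL alone, at 89.5, 94.2 and 47.5. In each of these 3 regions every EL percentile lay above every PT percentile. P4ha1, a catalytic subunit of prolyl 4-hydroxylase, had a region 1.51 kb inside its lower boundary (chromosome 10, 59324698 to 59324721) at 74.4, 91.0 and 67.2 in EL and in no PT list. At the boundary itself, 425 bp away, it had 65.3, 73.7 and 7.88 in EL and 13.4 in PT replicate 3, so these ranges overlap. Its paralogue P4ha2 had 1 region in EL replicates 1 and 2, at 60.3 and 81.5. Plod1, a lysyl hydroxylase, was bound 8.86 kb inside the gene at 87.0, 94.4 and 70.9 in EL and at 45.1 in PT replicate 3. A second Plod1 region, 3.44 kb outside it and at a boundary of 2510039O18Rik, was in all 6 libraries, at 67.8, 47.6 and 3.39 in EL and 40.9, 57.9 and 76.8 in PT. Plod2 had 1 region in EL alone, at 24.9, 74.3 and 60.5.

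The basement membrane genes held the clearest exception. Lama5 had 3, 4 and 2 nearby summits in EL and 4, 3 and 7 in PT, the one member with more summits in PT than in EL in the full lists. Loxl3 and Nid1 had more in PT too in lists of equal length, with 0 in EL and 2 in PT each. A Lama5 region lay 3.48 kb inside the upper boundary of the gene (chromosome 2, 180222324 to 180222516). It had 24.9, 62.0 and 18.8 in EL and 28.5, 83.8 and 87.7 in PT, values that overlap in the full lists. In lists of equal length it was in all 3 PT and no EL list. Another, 1.52 kb outside the boundary (180227357 to 180227489), was in all 6 libraries at 69.9, 89.1 and 88.2 in EL and 40.9, 57.9 and 78.4 in PT. The best nearby percentile of Lama5 was 11.6 points higher in EL in the full lists and 23.5 points lower at equal length, and the exact permutation test gave p = 0.5 and p = 0.2 (two-sided). The direction for Lama5 thus changed with the length of the lists.

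Hspg2, the perlecan gene, had the most EL summits of any member in the full lists, 8, 11 and 6, against 2, 3 and 1 in PT. In lists of equal length it had 6 nearby summits in EL and 4 in PT. Serpinh1 (11 in EL, 5 in PT) and Fbn1 (9 in EL, 0 in PT) then had more in EL. The highest Hspg2 region lay 26.5 kb inside the lower boundary (chromosome 4, 137495258 to 137495325), at 96.7, 97.5 and 94.3 in EL and 39.9 in PT replicate 2. PT replicates 1 and 3 had summits at percentiles 57.1 and 55.6 in a region ending at 137495043, separate only because it lay over 200 bp away. Regions 8.33 and 16.8 kb inside the same boundary were in all 3 EL and no PT library, at 75.2, 81.8 and 11.1 and at 32.6, 77.7 and 80.6. Lamc1, the laminin gamma 1 gene, had a region 7.42 kb inside its lower boundary at 60.3, 84.2 and 62.6 in EL and none in PT. Lamb1, the laminin beta 1 gene, was bound at its lower boundary at 79.7, 75.6 and 18.8 in EL and at 41.7 in PT replicate 3, although the summit of EL replicate 3 lay in a separate region. Nid1, a nidogen gene, had 1 region 12.3 kb outside it at 32.6, 70.0 and 43.8 in EL and at 50.1 and 60.0 in PT replicates 2 and 3, and only the PT summits were in lists of equal length. Nid2 was bound in EL replicates 1 and 2 alone.

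A wider list of 88 other matrix genes was bound more often in EL in the full lists. In lists of equal length the shares lay closer together, slightly higher in EL nearby and slightly lower in EL at a boundary. Nearby, EL libraries held 43.2% ± 16.8 of them in the full lists and PT libraries 18.9% ± 5.37 (SD, n = 3), and 11 of 88, or 12.5%, were in all 3 EL and no PT library, against 5.19% of all genes. Within 1 kb of a boundary, EL libraries bound 18.2% ± 9.84 of them and PT libraries 7.20% ± 2.62 in the full lists, and 5.68% ± 1.14 and 6.06% ± 0.656 in lists of equal length (SD, n = 3). Nearby, lists of equal length gave 16.7% ± 0.656 and 14.4% ± 0.656, from 15, 15 and 14 genes in EL and 13, 12 and 13 in PT. These library shares in lists of equal length are near those of all protein-coding genes. Nearby, 3 of 88, or 3.41%, were in all 3 EL and no PT list of equal length, against 1.64% of all genes. Podn, Has3 and Efemp2 were bound at a boundary throughout EL and never in PT (3 of 88, or 3.41%, against 1.94% of all genes). No list of equal length held these boundary summits. Nearby, Has3 and Efemp2 were bound in all 3 PT libraries too, and Podn in 1. At a boundary, all 6 libraries bound Ltbp3, which encodes a latent TGF-beta binding protein, Lamb2, a laminin beta chain, and Ntn1, the netrin 1 gene. The difference between the 37 genes and this list was not tested.

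Markers of other cell types were counted in the same way, as binding and not as expression. Of 6 fibroblast markers, 4, 5 and 3 were bound at a boundary in EL and 0, 0 and 1 in PT, and 3, 4 and 4 against 0, 0 and 0 were bound nearby in lists of equal length. Best boundary percentiles of Pdgfra ran from 50.7 to 86.9 in EL with 45.1 in PT replicate 3 alone, and those of Col1a1 and Col1a2 from 60.5 to 89.2 and from 37.5 to 84.4 in EL with none in PT. Pdgfrb had 0.384 and 19.3 in EL replicates 1 and 2, Thy1 38.5 in EL replicate 2 alone, and Col3a1 no boundary summit. Nearby, PT bound Col1a1 in 2 libraries, and Pdgfra and Col3a1 in 1 each. Boundary shares of fibroblast markers were 66.7% in EL and 5.56% in PT, against 15.3% and 8.14% of all genes (means of 3 full lists). As a set, the fibroblast markers were thus bound more often in EL, as the matrix genes were. Col1a1, Col1a2 and Col3a1 are collagen genes, and so matrix genes themselves. Of 6 epithelial markers, 1 in each EL library and 1, 1 and 2 in PT were bound at a boundary in the full lists, and 3 in every library were bound nearby. These markers were found more often in PT in lists of equal length, with 0, 0 and 0 in EL and 1, 1 and 2 in PT at a boundary, and 1, 2 and 1 against 3, 3 and 3 nearby. Cdh1, the E-cadherin gene, was bound at a boundary in all 6 full lists, at 62.8, 74.3 and 13.1 in EL and 76.0, 77.8 and 79.1 in PT. Its boundary summit was in all 3 PT and no EL list of equal length. Krt8 and Krt18 were bound nearby in all 6 libraries, and Krt18 also at a boundary in PT replicate 3. Epcam, Krt5 and Krt14 had no summit nearby in any library. None of the 6 leukocyte markers had a summit nearby in any library. Of 6 endothelial markers, 0 were bound at a boundary, and 1, 3 and 1 were bound nearby in EL and 0, 1 and 1 in PT. Because of the EL tissue label, 6 lung epithelial markers were counted too, although the growth protocol names mammary glands. Nearby, 4, 4 and 3 of them were bound in EL and 1, 2 and 3 in PT. The mean shares were 61.1% and 33.3%, against 37.9% and 22.4% of all genes. In lists of equal length the nearby counts were 3, 3 and 2 against 1, 2 and 2. The mean shares were then 44.4% and 27.8%, against 17.2% and 16.8% of all genes. Sftpc and Foxj1 were bound at a boundary in all 3 EL libraries and in 1 and 2 PT libraries. Nearby, Ager was bound in all 6 libraries, Scgb1a1 in 2 EL libraries and no PT library, and Sftpb and Nkx2-1 in none. The summits at Sftpc have the same percentiles as those at the boundary of Bmp1, a gene of the wider matrix list, and were counted for both genes. The part of cell type makeup in the difference at the matrix genes was not tested.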

How the data were processed

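ZFP281 chromatin immunoprecipitation was sequenced as paired reads of 150 bp in 3 EL and 3 PT libraries, with 1 input each (inputs not analysed here). The submitters' processing notes name Bowtie2 2.3.4.3, Picard and the mm10 build. Which peak caller was run, and how inputs entered, is not given in the sources used here. One summit list per library was deposited by the authors, whose score is taken to be a −log10 q-value because the lowest score in every list lies above 1.30, the −log10 of 0.05. Scores are the authors' own and only rank summits within a list.

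Positions are 1-based, and only the 19 autosomes, X and Y were kept. Gene boundaries came from a RefSeq table (GRCm38.p6, the mm10 build) without strand, and start sites from RefSeq promoter windows of the same build. A region's distance is taken from its midpoint. Tests were exact permutation tests of 3 against 3 libraries (20 relabellings, two-sided) with Benjamini-Hochberg adjustment over all protein-coding genes with a summit. The members, lists and rules were chosen with earlier results of these data known. All members were named; values per library were given for those bound at a boundary in at least 3 libraries or with a region in all 6, or all 3 of a group and none of the other, and for others chosen after their values were seen. Alternatives were list length, score limits of 5 and 10, windows, merging distance, a log2 scale of the deposited score, a replicate block and each library left out. Steps were tested on simulated summits. Python 3.11.15, pandas 2.3.3 and numpy 2.4.6 were used.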

Additional observations from a re-analysis of the deposited data

How the results depend on the processing

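The difference in bound members between EL and PT kept its sign under each alternative run. With lists of equal length the EL minus PT difference in bound members fell to 2.67 from 10.7 at a boundary and to 6 from 17.7 nearby. The EL-only members then numbered 2 at a boundary and 4 nearby, the members with EL wholly above PT 8, and the EL-only regions 11. A score of at least 10 gave 3, 7 and 11 in the first 3 of these classes. The EL-only members were 3 with 1 kb around the start site alone, a setting limited to 23 genes, and 7 with gene bodies alone, and EL-only regions were 12 when merged at 50 bp. With single libraries left out, the boundary difference ran from 8 to 13 and the nearby one from 15.7 to 20.2. The EL-only members ran from 5 to 9 at a boundary (9 without EL replicate 3) and from 11 to 16 nearby, members wholly above from 20 to 27, and EL-only regions from 20 to 34 (34 without EL replicate 3). A library left out loosens these class rules.

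Of 403 values for single members, 369 kept the direction of the EL minus PT percentile difference, 21 were 0 because no summit remained (10 of them at equal list lengths) and 13 reversed. At equal list lengths the reversed values were -17.6 (Fmod), -3.49 (Pcolce), -17.8 (Loxl3), -16.2 (Nid1) and -23.5 (Lama5). With gene bodies alone Lama5 gave -24.0, and with 5 kb around the gene Postn gave -2.86 and Loxl3 -2.86. With single libraries left out, values ran from -0.811 to 1.20 for Pcolce, -5.58 to 26.2 for Loxl3, -6.23 to 23.8 for Nid1 and -3.35 to 20.1 for Lama5, the lowest of the last 3 without PT replicate 1 and that of Pcolce without EL replicate 2. Without PT replicate 1, Pcolce gave -0.303. The cause was not tested. With a replicate block, 21 members were higher in EL in all 3 pairs, where the smallest sign-flip p is 0.25 (exact, two-sided). The share of all genes with this order was not computed, and the EL list was the longer one in every pair. The count is therefore not read as a trait of the members. Same-numbered libraries correlated at -0.0587, -0.0187 and -0.00290 in their deviations over 11259 genes. Differently numbered ones ran from -0.0386 to 0.0593. These values cannot show whether same-numbered libraries shared animals or a batch, and no pairing was assumed. Depth is unknown, so the absence of a summit from the shorter PT lists does not show that binding was absent.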
